A study of Mus musculus with 109 samples.

Results

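Cells of a cerebellar granule cell (GC) preparation that had Dcx and little Mki67, and so were taken as postmitotic, were divided by their Rbfox3 level, and the RNA of the Rbfox3-high cells was compared with that of the Rbfox3-low cells. The labels give all cells as from C57BL/6 mice at postnatal day 7 (P7) with no treatment named, whereas the methods of the study name ICR pups, so the strain is uncertain. Cerebella were dissociated, granule cell progenitors (GCPs) were enriched on a Percoll gradient, and single cells were captured on C1 Fluidigm chips for Smart-seq libraries. The labels divide the 109 cells into 6 library groups, and neither the labels nor the methods say which animals these hold, so the spread between library groups may be technical. The rule dropped 3 cells for depth or for detected genes. It kept cells with Mki67 under 10 CPM (the count of a gene times 1000000, divided by the total count of the cell), which left 75, and with Dcx at 200 CPM or more, which left 60. Of these, 29 had Rbfox3 at 100 CPM or more and 22 had Rbfox3 under 10 CPM, so 51 of 109 cells were compared. The 9 cells between both limits were left out.

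In the early postnatal cerebellum, GCPs divide in the outer external granule layer (EGL). Their daughters leave the cell cycle, turn on Dcx, a microtubule-associated protein of migrating neurons, and extend parallel fibers while they move along the EGL and then inward to the internal granule layer. Rbfox3 encodes NeuN, a splicing regulator that accumulates as neurons mature. GABAergic interneurons, which carry Pax2 and Gad1, also pass through the cerebellum at this age as young migrating neurons.

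The cells were chosen by their measured Rbfox3, Dcx and Mki67 levels, which are given as a description. Rbfox3 ran from 130 to 2555 CPM in the Rbfox3-high cells (median 303) and from 0 to 8.94 CPM in the Rbfox3-low cells (median 0.841). Just outside the limits, the cells left out ran from 11.1 to 95.3 CPM. Of the Rbfox3-low cells, 2 had no Rbfox3 count, so the class holds cells with few counts rather than none. Median Dcx was 1935 CPM in the Rbfox3-high and 3579 CPM in the Rbfox3-low cells. Each library group held 4 to 6 Rbfox3-high and 3 to 5 Rbfox3-low cells.

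Total counts ran from 1555150 to 8616017 (median 3337806) in Rbfox3-high and from 1275466 to 5798794 (median 3683618.5) in Rbfox3-low cells. The mean log2 total differed by 0.10 ± 0.30 between the classes (SD, n = 6 library groups, exact two-sided sign-flip permutation test, p = 0.41). Rbfox3-high cells had 58.9 fewer detected genes on average (4204 ± 374 against 4263 ± 203, SD, n = 6, exact two-sided sign-flip permutation test, p = 0.78). No pair of the 51 cells had identical counts. No doublet caller was run, and the libraries carry no molecular identifiers, which the intervals given here do not account for. These intervals pool the cells of a class as if independent, so they leave out the spread between library groups. A limit given for a count of 0 is 3 counts over the number of cells and pools cells in the same way.

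The marker genes were examined first to see whether both classes were GCs. Neurod1, a basic helix-loop-helix factor of differentiating GCs, reached 10 CPM in 29 of 29 Rbfox3-high and 21 of 22 Rbfox3-low cells. Zic1, a zinc finger factor of the lineage, did so in 28 and 20 cells. Of the 6 lineage markers Pax6, Zic1, Zic2, Meis1, Neurod1 and Barhl1, 3 or more reached 10 CPM in 28 of 29 Rbfox3-high and 18 of 22 Rbfox3-low cells. Most cells of both classes thus carried genes of the granule lineage, but so did 6 of the 8 Rbfox3-low cells with Gad1 described next, against 12 of the 14 other Rbfox3-low cells. A cut at 3 markers thus did not set cells with Gad1 apart. The number of markers was lower in them, with a median of 3 and at most 4 of 6, against a median of 5 and at most 6 in the others.

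A subset of the Rbfox3-low cells carried genes of GABAergic interneurons. Gad1, which encodes the enzyme that makes GABA, was at 10 CPM or more in 8 of 22 Rbfox3-low cells (36.4%, 95% Wilson interval 19.7 to 57.0) and in 3 of 29 Rbfox3-high cells (10.3%, 3.58 to 26.4). The share was lower in the Rbfox3-high cells in 6 of 6 library groups. Over all Rbfox3-low cells Gad1 ran from 0 to 8205 CPM with a median of 0.130, and over Rbfox3-high cells it ran from 0 to 369 CPM with a median of 0. Pax2, a marker of immature interneurons, was at 10 CPM or more in 6 Rbfox3-low cells and 1 Rbfox3-high cell. All 6 of these Rbfox3-low cells also had Gad1 at that level.

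Tfap2b and Tfap2a, transcription factors of cerebellar GABAergic cells, were looked up after these values were seen. At 10 CPM or more, Tfap2b was found in 8 Rbfox3-low and 3 Rbfox3-high cells, and 7 of the 8 Rbfox3-low cells also had Gad1. At least 2 of Gad1, Pax2, Tfap2a and Tfap2b reached 10 CPM in 8 Rbfox3-low and 2 Rbfox3-high cells. The Rbfox3-low cells with Gad1 came from 6 of 6 library groups, and 7 of these 8 cells also had Neurod1 at 10 CPM or more. Barhl1, a homeobox gene of the granule lineage, reached 10 CPM in 0 of 8 such cells, where a count of 0 allows a share of up to 37.5%, and in 7 of the 14 other Rbfox3-low cells.

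**Figure D1:**
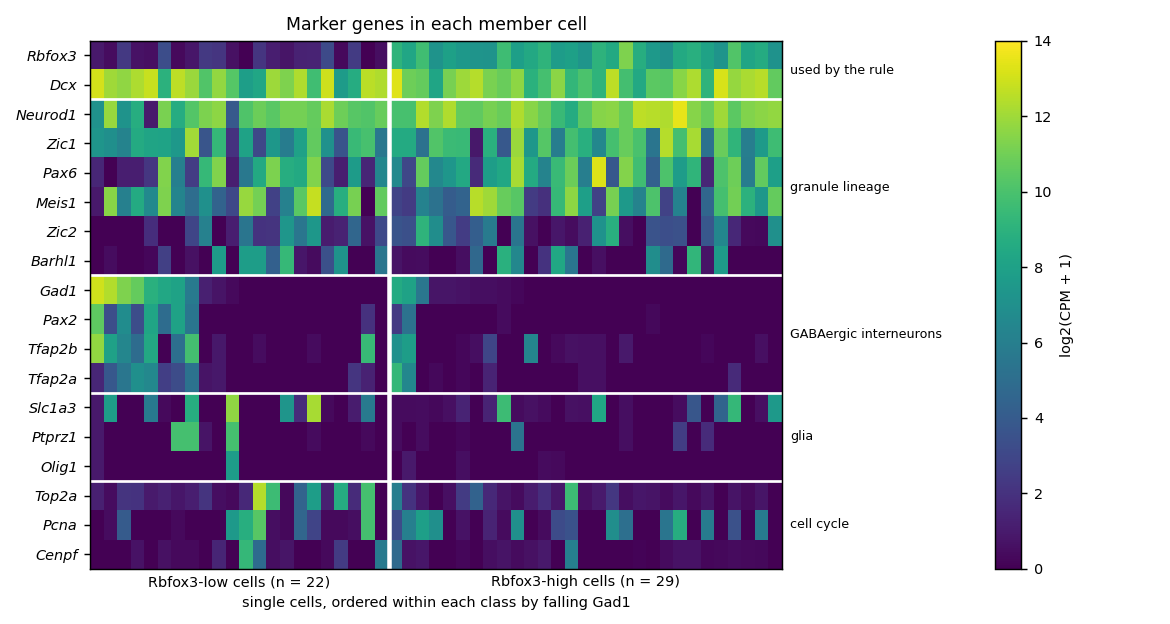
Marker genes (rows) in each of the 51 cells (columns), with color for log2(CPM + 1). Rbfox3-low cells stand left and Rbfox3-high cells right, each ordered by falling Gad1. The 8 Rbfox3-low cells at the left edge have Gad1 and at least 1 of Pax2, Tfap2b and Tfap2a at 10 CPM or more, and 7 of them have Neurod1.

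Genes of other cell types and of cycling cells were found in some cells of both classes. At least 3 of 12 astroglia markers reached 10 CPM in 4 Rbfox3-low and 3 Rbfox3-high cells. Over all cells, the summed level of these markers ran from 0.515 to 42779 CPM in Rbfox3-low and from 0.555 to 3374 CPM in Rbfox3-high cells. At least 3 of 12 oligodendrocyte lineage markers reached 10 CPM in 1 Rbfox3-low and 5 Rbfox3-high cells. At least 5 cell cycle genes reached 10 CPM in 4 Rbfox3-low and 3 Rbfox3-high cells although Mki67 was low in all of them, so the postmitotic label went against these genes in 7 cells. Top2a, the topoisomerase of dividing cells, was as high as 5592 CPM in 1 Rbfox3-low cell. The summed level of the 8 listed interneuron and unipolar brush cell markers of 11 ran from 0 to 9738 CPM (median 291) in Rbfox3-low and from 0 to 4812 CPM (median 4.09) in Rbfox3-high cells. Npy was at 0 in all Rbfox3-low cells and Slc6a5 in all Rbfox3-high cells. Purkinje cell markers summed to medians of 18.3 and 25.2 CPM and oligodendrocyte lineage markers to 20.1 and 90.8 CPM in Rbfox3-low and Rbfox3-high cells. Microglia and vascular markers summed to at most 244 CPM in any cell. Beyond leaving such cells out, the part of glial and cell cycle genes in the results below was not tested. The counts and levels below are for all 51 cells unless the Gad1-carrying cells are said to be left out.

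To compare the classes, counts were added up over the cells of 1 class within 1 library group, which gave 12 sums, and tested with edgeR's quasi-likelihood method. No gene was called at an adjusted p under 0.01, which was 0% of 4963 genes tested, and the lowest adjusted p was 0.86. At an unadjusted p under 0.05 there were 249 genes (5.02%), of which 143 were higher in Rbfox3-high cells (2.88%) and 106 lower (2.14%). The biological coefficient of variation was 190%. At this spread between sums, the differences described next were not separable from the variation between library groups. DESeq2 on the same sums called 416 of 6649 genes (6.26%), and limma on mean levels called 0 of 4750, with 234 at an unadjusted p under 0.05 (4.93%).

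A sum can be set by 1 cell, so the mean over cells of log2(CPM + 1), which weights each cell alike, was also compared within library groups. Of 4750 genes with a mean above 1 on this scale, 98 were higher in the Rbfox3-high cells in 6 of 6 library groups (2.06%) and 58 were lower in 6 of 6 (1.22%), which made 3.28% together. Averaged over the library groups, 2446 of the 4750 genes were higher in the Rbfox3-high cells. Among the 249 genes with a mean above 1 in the 16 lists of pathways and gene families, 10 were higher and 4 were lower in 6 of 6. The smallest p that an exact sign-flip permutation test of 6 library groups allows is 0.031, and adjusted over the 4750 genes it became 0.87. With random directions, a share of 0.031 of genes would go the same way in all 6 groups, and the 3.28% found was close to that.

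Genes of the axonal cytoskeleton and growth cone are described first, by single genes and then as a list. Gap43 (chromosome 16, 42248442 to 42340651, GRCm38), a growth cone protein, ran from 1.01 to 2967 CPM in Rbfox3-high cells with a median of 548. In the Rbfox3-low cells it ran from 0 to 1786 CPM with a median of 3.24. It was at 10 CPM or more in 28 of 29 Rbfox3-high and 9 of 22 Rbfox3-low cells, and the ranges overlapped.

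The mean log2 level of Gap43 was 8.54 ± 1.37 in Rbfox3-high and 4.77 ± 2.36 in Rbfox3-low cells (SD, n = 6 library groups), a difference of 3.77, and it was higher in 6 of 6 groups. The sums gave a log2 fold change of only 0.48 (SE 0.99, edgeR adjusted p = 0.99), and -0.07 without the cells that carried Gad1, glial or cell cycle genes. Gap43 was singled out after its values were seen. Of the Rbfox3-low cells with Gad1, 1 of 8 had Gap43 at 10 CPM or more, against 8 of 14 without Gad1. Without all Gad1-carrying cells the difference in mean log2 level was 2.25, with 5 of 6 library groups higher, and without glial and cell cycle cells as well it was 0.71, with 4 of 5 higher.

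Dpysl3 (CRMP4), a cytosolic regulator of growth cone microtubules and actin, ran from 2.72 to 8134 CPM (median 1265) in Rbfox3-high cells. In Rbfox3-low cells it ran from 0.773 to 2299 CPM (median 175). Its sums held 1951 ± 457 CPM in Rbfox3-high and 476 ± 455 CPM in Rbfox3-low cells (SD, n = 6), a log2 fold change of 1.93 (SE 0.74, edgeR unadjusted p = 0.017 and adjusted p = 0.98). The Rbfox3-high sum was the higher in 6 of 6 library groups. The difference in mean log2 level was 2.95, and 3.64 when Gad1-carrying cells were left out, again higher in 6 of 6 groups.

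The list of 25 neuronal cytoskeleton genes had 24 genes tested. At an unadjusted p under 0.05 in edgeR, 1 was higher and 0 were lower, against 2.88% and 2.14% over all genes. On the mean log2 scale 22 of 24 were higher in Rbfox3-high cells, against 2446 of 4750 over all genes. The median difference was 0.53 against 0.03 over all genes, and 2 of 24 were higher in 6 of 6 groups (2.06% over all genes). Map1b, a microtubule-associated protein of growing axons, was high in both classes, with medians of 8032 and 4740 CPM. Its mean log2 level was 12.87 ± 0.55 in Rbfox3-high and 10.88 ± 1.79 in Rbfox3-low cells (SD, n = 6), and was higher in 5 of 6 groups. Without Gad1-carrying cells Map1b differed by 1.07, with 5 of 6 groups higher, and without glial and cell cycle cells as well by 0.095. Mapt, which encodes tau, was at 10 CPM or more in 18 of 29 and 7 of 22 cells. Tubb3, the neuronal beta-tubulin, had medians of 1970 and 1013 CPM and was higher in 3 of 6 groups.

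Ank2 and Rdx link membrane proteins to the cytoskeleton and were chosen after their values were seen. Ank2, an ankyrin of axons, was at 10 CPM or more in 25 of 29 Rbfox3-high and 12 of 22 Rbfox3-low cells. Rdx, which encodes the actin-linking protein radixin, was at that level in 20 and 8 cells. Both were higher in mean log2 level in 6 of 6 groups, by 2.93 and 3.42. Left without Gad1-carrying cells, Rdx differed by 4.61 with 6 of 6 groups higher and Ank2 by 2.10 with 4 of 6 higher.

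**Figure D2:**
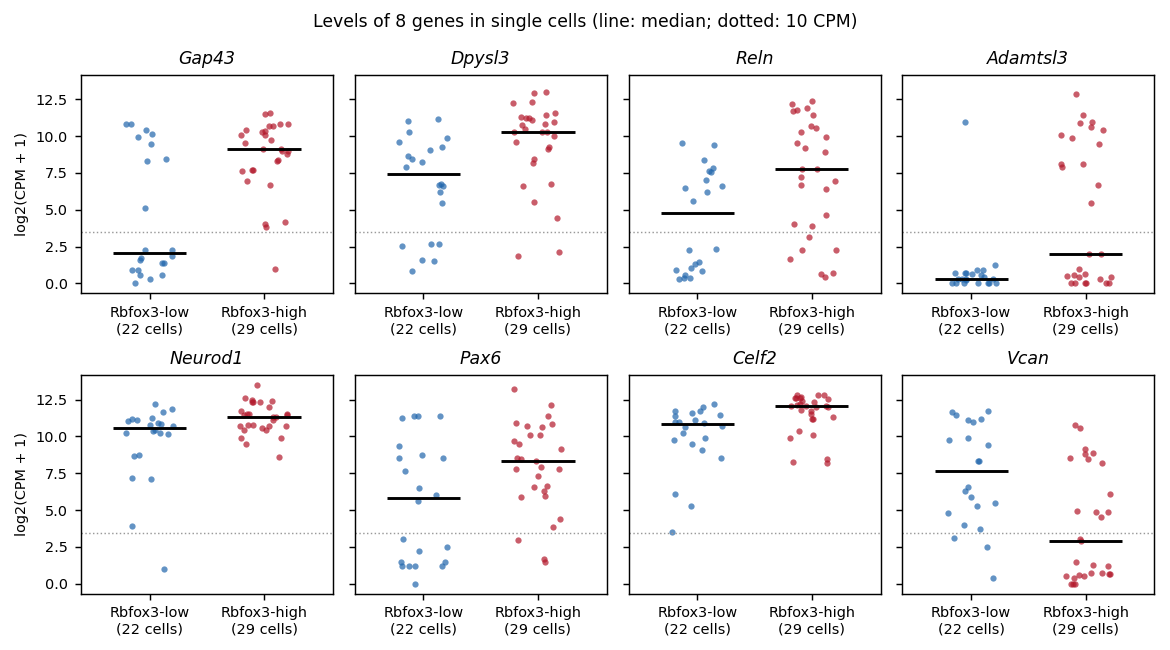
Level of 8 genes in each cell as log2(CPM + 1), with 22 Rbfox3-low cells in blue and 29 Rbfox3-high cells in red. Black lines are medians and the dotted line is 10 CPM. Gap43, Dpysl3, Reln, Adamtsl3, Pax6 and Vcan had cells both above and below 10 CPM in each class.

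Reln (chromosome 5, 21884454 to 22344702, GRCm38) was the leading gene of the late granule neuron list. It encodes reelin, a secreted glycoprotein that GCs make and that guides migrating neurons. Reln ran from 0.324 to 5444 CPM (median 213) in Rbfox3-high and from 0.260 to 727 CPM (median 26.1) in Rbfox3-low cells. Its sums held 1131 ± 938 and 109 ± 70.7 CPM (SD, n = 6), a log2 fold change of 3.23 (SE 0.999, edgeR unadjusted p = 0.0044 and adjusted p = 0.86), and were higher in 6 of 6 groups. Among the cells with Gad1 in the Rbfox3-low class, 2 of 8 had Reln at 10 CPM or more, against 9 of 14 of the others. The mean log2 difference was 2.82 with all cells and 1.79, with 5 of 6 groups higher, without Gad1-carrying cells. Without glial and cell cycle cells as well it was 0.95, with 3 of 5 higher.

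Few other genes of mature GCs could be tested. Of the 25 late granule neuron genes, 19 were listed and 5 tested, and Gabra6, the GABA-A receptor subunit of mature GCs, was not among the genes listed. On the mean log2 scale 6 of 7 genes were higher in Rbfox3-high cells, against 2446 of 4750 over all genes, with a median of 1.52. Cbln1, a synapse organizer that GCs release, was at 10 CPM or more in 11 of 29 and 3 of 22 cells. Cadps2, a secretion factor of granule neurons, was at that level in 17 and 11 cells. Apart from Reln, 0 of the 4 other genes tested had an unadjusted p under 0.05 in edgeR, against 5.02% over all genes.

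Transcription factors of the lineage were present in both classes. Neurod1 ran from 388 to 11611 CPM (median 2583) in Rbfox3-high and from 1.03 to 4762 CPM (median 1500) in Rbfox3-low cells. Its mean log2 level was 11.21 ± 0.75 and 9.75 ± 0.93 (SD, n = 6 library groups), higher by 1.46 in 6 of 6 groups (exact two-sided sign-flip permutation test, p = 0.031, the smallest it can give, and adjusted p = 0.87 over 4750 genes). Without Gad1-carrying cells the difference was 0.58, with 3 of 6 groups higher. Library group 6 set most of this, with 3.46 against -0.58 to 0.87 in the other groups. Without glial and cell cycle cells as well, the Neurod1 difference was 0.24, with 4 of 5 groups higher. Pax6, a homeodomain factor that GCPs and young GCs share, was at 10 CPM or more in 26 of 29 and 12 of 22 cells. Its mean log2 level was higher by 2.25, in 5 of 6 groups (exact sign-flip test, p = 0.094), and without Gad1-carrying cells by 1.75, in 3 of 6 (p = 0.25, exact). Pax6 was at 10 CPM or more in 2 of the 8 Rbfox3-low cells with Gad1 and in 10 of the 14 others.

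Meis1, a TALE homeobox factor of GCs, had medians of 167 and 113 CPM and was higher in 3 of 6 groups. Neurod2, a later relative of Neurod1, was at 10 CPM or more in 10 and 7 cells. Nfib (chromosome 4, 82290173 to 82705750, GRCm38), a nuclear factor I protein that takes part in GC maturation, was abundant in both classes. It ran from 2803 to 18507 CPM in Rbfox3-high cells (median 10199) and from 3003 to 23243 CPM in Rbfox3-low cells (median 12751).

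The sums of Nfib held 9140 ± 3620 and 13157 ± 3067 CPM (SD, n = 6), a log2 fold change of -0.80 (SE 0.28, edgeR unadjusted p = 0.011 and adjusted p = 0.98), and were lower in 5 of 6 groups. Of the 24 lineage factors, 19 were tested. At an unadjusted p under 0.05 in edgeR, 0 were higher and 1, Nfib, was lower, against 2.88% and 2.14% over all genes. The median difference of this list in mean log2 level was 0.25.

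Progenitor and cell cycle genes varied widely, and their medians depended on the measure. The median log2 fold change of the sums was -0.84 over 10 progenitor and hedgehog genes tested and -1.64 over 11 cell cycle genes, against -0.15 over all genes. No gene of either list had an unadjusted p under 0.05 in edgeR, against 5.02% over all genes. On the mean log2 scale, which weights cells alike, the medians were -0.26 and -0.39 against 0.03 over all genes. There 4 of 10 progenitor and 5 of 11 cell cycle genes were higher in Rbfox3-high cells, against 2446 of 4750 over all genes. In 6 of 6 groups 1 cell cycle gene was higher and 0 were lower, against 2.06% and 1.22% over all genes. In the cell cycle genes the sums followed few cells. Of all Top2a counts of the Rbfox3-low class 66.6% came from 1 cell, and of its Cenpf counts 91.7%. Ccnd2, a D-type cyclin of GCPs, was at 10 CPM or more in 21 of 29 and 14 of 22 cells. Sfrp1, a secreted Wnt inhibitor, was at that level in 11 and 8 cells. Notch2, the receptor that the study followed, was at that level in 1 Rbfox3-high and 2 Rbfox3-low cells and was too low for the test of sums. Atoh1, the factor that defines GCPs, was at 10 CPM or more in 3 Rbfox3-high and 0 Rbfox3-low cells, where a count of 0 allows a share of up to 13.6%.

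Of 27 migration and guidance genes 19 were tested, and 0 had an unadjusted p under 0.05 in edgeR (5.02% over all genes). On the mean log2 scale 13 of 19 were higher in Rbfox3-high cells, against 2446 of 4750 over all genes, with a median of 0.53. In 6 of 6 groups 1 was lower, against 1.22% over all genes. Sema6a, the semaphorin that acts when GCs switch to radial migration, was at 10 CPM or more in 29 of 29 and 19 of 22 cells. Its mean log2 level was higher by 1.07, in 5 of 6 groups (exact sign-flip test, p = 0.0625), but by 0.16, in 4 of 6, without Gad1-carrying cells. Cntn2 (TAG-1), an adhesion molecule of GCs in the inner EGL, had medians of 223 and 353 CPM and was higher in 4 of 6 groups, with a difference that turned to -1.39 without Gad1-carrying cells. Dcc, a netrin receptor, was at 10 CPM or more in 10 Rbfox3-high and 11 Rbfox3-low cells. Vcan, a chondroitin sulfate proteoglycan of the matrix chosen after its values were seen, was lower in Rbfox3-high cells in 6 of 6 groups, and in 5 of 6 without Gad1-carrying cells. Vcan was at 10 CPM or more in 13 of 29 and 19 of 22 cells, with medians of 6.34 and 203 CPM.

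Genes of synapses and excitability come next. Of 22 synaptic vesicle genes tested, 1 was higher and 0 were lower at an unadjusted p under 0.05 (2.88% and 2.14% over all genes). The list's median was -0.24 for log2 fold changes of sums but 0.87 for mean log2 differences, so the sign depended on the measure. Sv2a, a synaptic vesicle glycoprotein, was at 10 CPM or more in 6 of 29 and 2 of 22 cells (log2 fold change 6.74, SE 2.30, edgeR adjusted p = 0.88). Snap25, a SNARE protein of transmitter release, had medians of 358 and 227 CPM and was higher in 4 of 6 groups. Cplx1, which encodes complexin, was chosen after its values were seen. Cplx1 was at 10 CPM or more in 9 and 1 cells, and was higher in mean log2 level in 6 of 6 groups, also without Gad1-carrying cells.

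Over all genes, 2.88% were higher and 2.14% lower at an unadjusted p under 0.05 in edgeR. Of 13 voltage-gated channel and related genes tested, 1 was higher and 0 were lower at that level. This was Kcna1, a potassium channel subunit of axons, which was at 10 CPM or more in 10 of 29 Rbfox3-high and 1 of 22 Rbfox3-low cells (log2 fold change 4.96, SE 2.13, edgeR adjusted p = 0.98). Of 10 glutamate and GABA receptor genes tested, 0 had an unadjusted p under 0.05 in edgeR (5.02% over all genes). Grik2, a kainate receptor subunit, was at 10 CPM or more in 19 and 7 cells and higher by 2.26, in 6 of 6 groups. Without Gad1-carrying cells Grik2 was higher by 1.17, in 4 of 6 groups, and without glial and cell cycle cells as well by 0.12, in 2 of 5. Grin2b, the NMDA receptor subunit of young neurons, was at that level in 17 and 9 cells and higher by 1.57, in 5 of 6 groups (exact sign-flip test, p = 0.094). This fell to 0.40, in 4 of 6 groups, without Gad1-carrying cells and to 0.017 without glial and cell cycle cells as well.

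Celf2 (chromosome 2, 6539694 to 7509563, GRCm38), a CUG-binding splicing regulator, led the list of RNA-binding proteins. It ran from 293 to 7134 CPM (median 4255) in Rbfox3-high and from 10.6 to 4629 CPM (median 1802) in Rbfox3-low cells. Its sums held 4003 ± 712 and 1680 ± 587 CPM (SD, n = 6), a log2 fold change of 1.01 (SE 0.41, edgeR unadjusted p = 0.023 and adjusted p = 0.98). All 6 Rbfox3-high sums were above all 6 Rbfox3-low sums, which held for 10 of 4963 genes (0.201%), among them C1qbp, Nav3, Rpl27a and Kcna1. The reverse held for 2 genes (0.0403%), Rps3 and Gad1. Without Gad1-carrying cells the mean log2 difference went from 1.503 to 0.82, with 5 of 6 groups higher.

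The relatives of Rbfox3 were also examined. Rbfox1 was at 10 CPM or more in 10 of 29 Rbfox3-high and 2 of 22 Rbfox3-low cells, and its mean log2 level was 2.14 ± 1.15 against 0.90 ± 1.20 (SD, n = 6), higher in 6 of 6 groups (exact sign-flip test, p = 0.031, adjusted p = 0.87) and, without Gad1-carrying cells, in 4 of 6. Rbfox2 was at that level in 15 and 13 cells and higher in 3 of 6 groups. These genes encode closely related proteins, and how reads shared between them were counted is not given. Of 21 RNA-binding protein genes tested, 1 was higher and 0 were lower at an unadjusted p under 0.05 (2.88% and 2.14% over all genes).

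Subunits of the BAF chromatin remodeling complex change as neural progenitors become neurons. Ss18, a subunit of the progenitor form, was at 10 CPM or more in 2 of 29 Rbfox3-high and 8 of 22 Rbfox3-low cells. Smarcc1 (BAF155), a core subunit, was at that level in 7 and 13 cells. Both were lower in mean log2 level in 6 of 6 groups, by -2.20 and -2.23, and without Gad1-carrying cells Ss18 was lower in 5 and Smarcc1 in 4 of 6. Smarca4, another BAF subunit, went the other way, higher by 1.61 in 4 of 6 groups, with 15 of 29 and 9 of 22 cells at 10 CPM or more. Over the list of BAF and chromatin genes, 8 of 23 were higher on the mean log2 scale, against 2446 of 4750 over all genes. Of 24 chromatin genes tested in edgeR, 0 had an unadjusted p under 0.05 (5.02% over all genes). Phc2, a Polycomb protein chosen after its values were seen, was at 10 CPM or more in 9 of 29 and 11 of 22 cells and lower in 6 of 6 groups, or in 5 of 6 without Gad1-carrying cells.

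**Figure D3:**
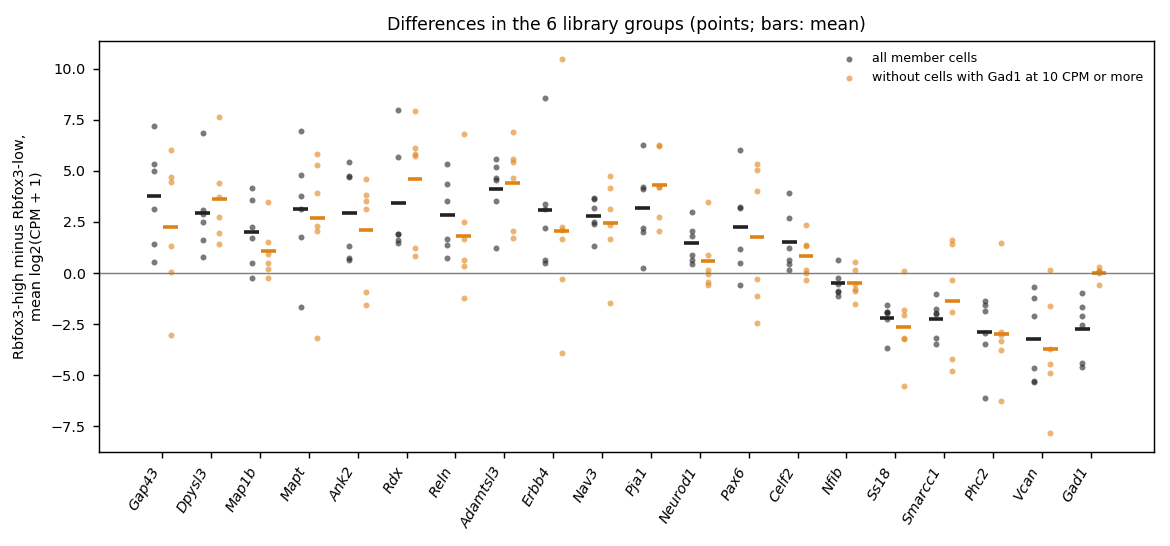
Difference in mean log2(CPM + 1), Rbfox3-high minus Rbfox3-low, for selected genes. Each point is 1 of 6 library groups and each bar their mean, in black for all 51 cells and in orange without cells with Gad1 at 10 CPM or more. Gap43, Reln and Neurod1 moved toward 0 without those cells, whereas Adamtsl3, Pja1 and Rdx stayed above 0 in every group.

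Adamtsl3 (chromosome 7, 82335694 to 82614450, GRCm38), an ADAMTS-like glycoprotein of the extracellular matrix, had the highest mean difference of the 4750 genes. It was chosen after its values were seen. Adamtsl3 ran from 0 to 7593 CPM (median 2.97) in Rbfox3-high cells and was at 10 CPM or more in 14 of 29. In Rbfox3-low cells 1 of 22 reached that level, with 1988 CPM, and the median was 0.260. The mean log2 level was 4.89 ± 1.70 and 0.76 ± 0.85 (SD, n = 6), higher in 6 of 6 groups. The sums gave a log2 fold change of 3.54 (SE 1.79, edgeR adjusted p = 0.99), and 99.7% of the Rbfox3-low counts came from that 1 cell. Without library group 6, which held that cell, the adjusted p in edgeR was 0.0696.

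Further genes chosen after their values were seen were also higher in 6 of 6 groups. Pja1, a ubiquitin ligase, was at 10 CPM or more in 14 of 29 and 3 of 22 cells. Nav3, a microtubule-binding neuron navigator protein, was at that level in 12 and 1 cells (log2 fold change of the sums 5.45, SE 2.07). Erbb4, the neuregulin receptor, was at that level in 17 and 4 cells (log2 fold change 4.18, SE 1.61). Mab21l1 was at that level in 18 and 5 cells. Without Gad1-carrying cells Pja1 was higher in 6, Nav3 in 5, and Erbb4 and Mab21l1 in 4 of 6 groups.

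Genes with the smallest p-values in the sums were mostly ones that a minority of cells had. Among the 10 genes named for a higher level in Rbfox3-high cells, C1qbp, a mitochondrial matrix protein, was at 10 CPM or more in 9 of 29 and 0 of 22 cells (a count of 0 allows up to 13.6%), with 11383 counts in all against 35 (log2 fold change 8.25, SE 2.18, edgeR unadjusted p = 0.0013 and adjusted p = 0.86). Tbc1d14, a regulator of autophagy, was at that level in 7 and 2 cells (log2 fold change 7.79, SE 2.02). Rpl27a, a ribosomal protein gene, was at that level in 6 and 0 cells (log2 fold change 7.46, SE 1.87). Reads of ribosomal protein genes can be shared with their processed pseudogenes, so this value is uncertain. The others were Snx10, 6430548M08Rik, Atg4b, Bfar, Blcap, Ift88 and Reln.

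Among the 10 genes named for a lower level, Nanos1, an RNA-binding translational repressor, was at 10 CPM or more in 1 of 29 and 6 of 22 cells, with 92 counts in all against 25944 (log2 fold change -10.03, SE 2.41, edgeR unadjusted p = 0.000545 and adjusted p = 0.86). Prdx6, a peroxiredoxin, was at that level in 1 and 7 cells (log2 fold change -8.08, SE 2.24). Xpo6, the exportin of actin, was at that level in 4 and 11 cells (log2 fold change -5.57, SE 1.74). The others were Prkab2, Cpne3, Uimc1, Samd4b, Eif5b, Gorasp2 and Tubgcp4. Of these 10 genes, 0 were in any of the lists.

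Ribosomal protein genes had a median log2 fold change of the sums of -0.66, against -0.15 over all genes, and a median mean log2 difference of -0.26. Of 24 such genes tested, Rps27a was higher (log2 fold change 2.21, SE 1.03) and Rps3 lower (-1.81, SE 0.78) at an unadjusted p under 0.05 in edgeR. Over all genes 2.88% were higher and 2.14% lower at that level. Rps3 was at 10 CPM or more in 21 of 29 and 19 of 22 cells, with medians of 89.4 and 556 CPM. Summed over 26 ribosomal protein genes, cells held 664 to 5110 CPM (median 1869) in Rbfox3-high and 757 to 11640 CPM (median 3718) in Rbfox3-low cells. Mitochondrial transcripts summed to medians of 16474 and 17755 CPM, and 0 of 9 had an unadjusted p under 0.05. The same held for 0 of 24 genes of the respiratory chain and glycolysis and 0 of 4 long noncoding RNAs. Of 7 immediate early genes 1 was lower, against 2.14% over all genes. This was Egr1, a zinc finger factor induced by activity and by dissociation (log2 fold change -5.24, SE 2.06). Egr1 was at 10 CPM or more in 3 of 29 and 5 of 22 cells.

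**Figure D4:**
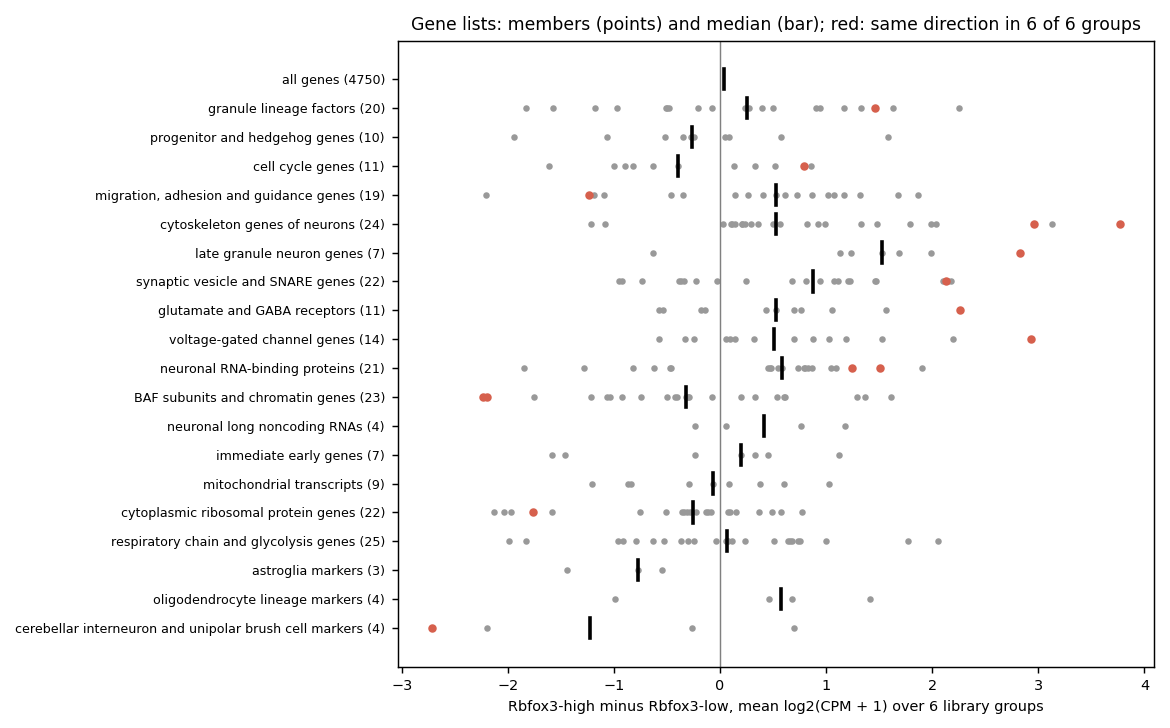
Gene lists by the difference in mean log2(CPM + 1), Rbfox3-high minus Rbfox3-low, averaged over 6 library groups. Points are genes with a mean above 1, red where all 6 groups had the same direction, bars are list medians, and the number of genes is in brackets. Medians of the late granule neuron and synaptic vesicle lists stood at 1.52 and 0.87, against 0.03 over all genes, and the interneuron list at -1.23.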

How the data were processed

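Single cells from P7 cerebella were sequenced by Smart-seq. The authors aligned reads to mm10 with STAR 2.4.1d and counted them with HTSeq 0.6.1, and the deposited values are raw counts per gene and cell. The annotation and the strand setting are not given in the sources used here. Without the strand setting, reads of overlapping genes cannot be told apart, and 89 of 123 named genes overlap another gene in GENCODE vM21, the source of positions. The table lists 15973 genes, all of them seen in 3 or more cells. Each column was tied to a sample through the number in its name, and the library group was read from the title.

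CPM were computed as 1000000 times the count of a gene divided by the total of the cell. The limits on total counts (1000000) and detected genes (10000), and those on Mki67, Dcx and Rbfox3, are given with the cells. Members, lists and tests were chosen with earlier results of these data known. Sums per class and library group (8267506 to 30669173 counts) were compared with edgeR 4.0.16 in R 4.3.3 (filterByExpr, TMM, quasi-likelihood test, Benjamini-Hochberg adjustment, called under 0.01, the study's threshold). Rbfox3, Dcx and Mki67 were left out before adjustment. Folds are Rbfox3-high over Rbfox3-low, and standard errors were derived from the quasi-likelihood F. Mean levels used log2(CPM + 1), averaged over the cells of a class in a library group, with genes above a mean of 1, and exact two-sided sign-flip permutation tests over library groups, run with Python 3.11.15 and adjusted over all genes so compared. The edgeR and DESeq2 fits were run on simulated sums, but with a biological coefficient of variation below the 190% of these data. That run therefore cannot show how they perform at the spread found here. The limma and sign-flip tests were not simulated.

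Named genes were, per direction, the 10 with the smallest p that went the same way in at least 5 library groups (no gene was called), up to 4 leading genes of each list, and genes the study names (Ccnd2, Sema6a, Tubb3, Neurod1, Pax6, Meis1, Sfrp1, Notch2) or chosen for the lineage (Gabra6, Cntn2, Neurod2, Grin2b, Snap25, Rbfox1, Rbfox2). Others are said to be chosen after their values were seen. Alternatives were library group as a block, DESeq2 1.42.0 size factors or tests, no filter, limma 3.58.1, cells as units, cells thinned to 1275466 counts, a covariate for detected genes, sums of at least 2 cells, other limits on Rbfox3, Dcx or depth, a threshold of 0.05, a pseudocount of 10 CPM, shares of cells at 10 CPM, and each library group left out. Fits without cells carrying Gad1, glial or cell cycle genes were added after the data were seen.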

Additional observations from a re-analysis of the deposited data

Results flagged for a closer look

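For the mean log2 levels and depth described above, each class was searched for a library group far from the other five, and 7 of 76 sets of 6 values had one. About 1 in 20 such sets is expected to have one by chance. In Rbfox3-high cells, Notch2 was 0.98 in library group 4 and 0 to 0.27 in the others, Adamtsl3 was 1.63 in library group 1 and 4.68 to 6.06 in the others, and Ss18 was 2.63 in library group 5 and 0 to 0.42 in the others. In Rbfox3-low cells, Grin2b was 1.30 in library group 5 and 3.36 to 4.51 in the others, and Rbfox1 was 3.20 in library group 2 and 0 to 0.999 in the others. Adamtsl3 was 2.42 in library group 6 against 0.11 to 0.89, and Cplx1 was 4.13 in library group 3 against 0 to 0.82. Rbfox3-low cells number 3 to 5 per library group, so 1 cell can set such a value. The part of these library groups in the differences was measured by leaving each out.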

How the results depend on the processing

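The edgeR test called 0 genes at an adjusted p under 0.01 with 249 at an unadjusted p under 0.05, and 0 were called under 22 of 23 alternatives, among them the library group as a block for pairing (0 called, 191 at an unadjusted p under 0.05), each library group left out (0 to 0), cells as units and the fits without Gad1, glial or cell cycle cells. A threshold of 0.05 also gave 0. DESeq2 on the sums called 416 genes, 211 higher and 205 lower, and the cause was not tested. Block and limma changed no call. Numbers of detected genes differed by -600 when Rbfox3-low cells had no Rbfox3 count, which leaves 2 cells, and by -182.6 to 16.9 when each library group was left out. The log2 total differed by 0.056 to 0.20 when each was left out. Of 21 genes with a log2 fold change, 18 kept their direction in every alternative that tested them. The exceptions were Gad1 (11.63) and Pax2 (0.71) when Rbfox3-low cells had no count, and Gap43 (-0.069) without all Gad1, glial and cell cycle cells. Of 36 mean log2 differences, 27 were reversed by no alternative. Without all these cells, Pax2 was 0.015, Sema6a -0.51, Sfrp1 0.98, Notch2 0.30, Cntn2 -2.995 and Neurod2 -0.24. Without Gad1 cells, Meis1 was 0.31, Cntn2 -1.39 and Rbfox2 0.40. Without glial cells, Sfrp1 was 0.016, Neurod2 -0.74 and Rbfox2 0.28, and without cell cycle cells Sfrp1 was 0.66. As shares of cells at 10 CPM or more, Ccnd2 was 0.14 and Sfrp1 0.022. Leaving out 1 library group gave -0.82 to 0.62 for Ccnd2 (0.18 without group 1, 0.62 without group 6), -0.78 to 0.38 for Meis1 (0.38 without group 1), -1.11 to 0.16 for Sfrp1 (0.16 without group 1), -0.37 to 1.22 for Cntn2 (-0.37 without group 4, -0.21 without group 6) and -0.66 to 0.58 for Neurod2 (-0.66 without group 1). In all, 51 cells in 6 library groups limit what can be separated.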

Other observations

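The 9 cells with Rbfox3 between both limits entered no comparison. Their genes are given as values, with levels averaged over cells in place of library groups. Gap43 was at 10 CPM or more in 7 of 9 such cells (median 238 CPM), Dpysl3 in 8 of 9 (median 1268 CPM), Reln in 6 of 9 (median 280 CPM) and Adamtsl3 in 4 of 9 (median 0.927 CPM). Mean log2 levels of Gap43 were 4.51, 7.14 and 8.55 in Rbfox3-low, between and Rbfox3-high cells. Those of Adamtsl3 were 0.87, 4.04 and 4.85, and those of Ank2 were 5.71, 6.50 and 8.73. Celf2 had 9.97, 10.41 and 11.54. By mean log2 level the cells between stood between both classes for these genes, and the differences were not tested. By median they did not for Reln and Dpysl3, whose medians in Rbfox3-high cells were 213 and 1265 CPM.

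Vcan, which was lower in Rbfox3-high cells, had mean log2 levels of 7.36, 4.04 and 3.90 in Rbfox3-low, between and Rbfox3-high cells. The cells between again stood between both classes, but close to the Rbfox3-high cells. Meis1, Rbfox1 and Nfib did not follow this order. Nfib had mean log2 levels of 13.52, 12.995 and 13.03 in Rbfox3-low, between and Rbfox3-high cells. Meis1 was at 10 CPM or more in 9 of 9 cells between, with a mean log2 level of 9.44 against 7.33 in Rbfox3-low and 7.02 in Rbfox3-high cells. Rbfox1 was at 10 CPM or more in 5 of 9, with a mean log2 level of 4.45 against 0.93 and 2.26. Gad1 was at that level in 1 of 9 cells, with 1393 CPM.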
